A study of Homo sapiens with 4 samples.

Results

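The genes described here are the protein-coding genes on the end of the long arm of chromosome 7, from CASP2 to UBE3C in gene order. Of 48162 genes in the table of counts, 100 were protein-coding rows within this span. A gene was kept as a member with 80 or more counts summed over the 4 libraries, and 7 genes were left out by symbol (those starting ARHGEF, KCN or EPH, and PDIA4, ATP6V0E2 and INSIG1). This left 49 members, while 44 genes had fewer counts, of which 16 had none. The lowest members were ZNF425 with 109 counts and RNF32 with 120, and the nearest genes under the minimum were ASIC3 with 62 and SHH with 52. The members were chosen by their summed counts, and the span was selected on the measured difference between the groups. In the members it is therefore described and not tested.

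RNA was sequenced from MDA-MB-453, an established human breast cancer line, in 2 libraries of wild-type cells (WT) and 2 of cells with the genotype TMEM9 KD. The sources used here do not say how TMEM9, the gene of a lysosomal membrane protein, was reduced, or whether the cells are 1 clone. The labels name no separate cultures, so p-values rest on the spread between these 4 libraries alone, and that spread may be technical. Totals ran from 15323843 to 18517337 counts. The series text calls the profiles retinal, while every label gives the breast line.

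Levels are given in CPM, counts scaled to library size with TMM factors. An edgeR fit over 14923 genes gave the log2 fold changes, which are negative where TMEM9 KD was lower (n = 2 per group). TMEM9 itself had 74.9 and 83.3 CPM in WT and 3.12 and 4.47 CPM in TMEM9 KD (log2 fold change -4.37, SE 0.126). Markers of the labelled line were present in part. ERBB2, a receptor tyrosine kinase gene, had 63.6 and 63.8 CPM in WT and 53.3 and 55.5 CPM in TMEM9 KD. SPDEF, KRT19, PIP, TFAP2B and AGR2 were at most 0.401 CPM in every library, whereas the mesenchymal marker VIM had 1343 and 1356 CPM in WT and 1846 and 1745 CPM in TMEM9 KD. In such bulk libraries, fewer cells of a type and less RNA per cell cannot be told apart.

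The members are neighbours on the chromosome and do not form 1 pathway. The distal long arm of chromosome 7 carries a cluster of KRAB zinc finger genes, which encode DNA-binding repressors. It also holds EZH2, the methyltransferase of Polycomb repressive complex 2, KMT2C, a histone H3 lysine 4 methyltransferase, and CUL1, the scaffold of the SCF ubiquitin ligases. Other genes of the span act in growth signalling (RHEB), cell cytoskeleton (ZYX), apoptosis (CASP2) and embryonic patterning (EN2).

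The members as a whole were lower in TMEM9 KD. Their summed level was 2559 and 2535 CPM in WT and 1544 and 1588 CPM in TMEM9 KD, with no overlap between the groups. The median log2 fold change of the 49 members was -0.88, which is 1.84-fold lower, with quartiles of -1.18 and -0.57. By library, the median of the members relative to the WT mean on the log2(CPM + 0.5) scale was -0.90 in TMEM9 KD replicate 1 and -0.82 in replicate 2, and 0.02 and -0.02 in the WT libraries. All 49 members passed the expression filter. At an adjusted p below 0.05 the edgeR fit called 42 of them lower, beside 29.0% of all genes tested, and 4 higher, beside 28.7% (57.7% in either direction), and as the span was chosen with this contrast in view nothing is read from these counts. Of the 4 higher calls, which included CASP2, ZYX and EN2, DESeq2 kept 2, that of ZYX among them, and without WT replicate 2 only 1 was left. In CPM, both knockdown libraries lay below both WT libraries in 42 members, beside 38.5% of all genes, and above them in 3, beside 39.1%.

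**Figure D1:**
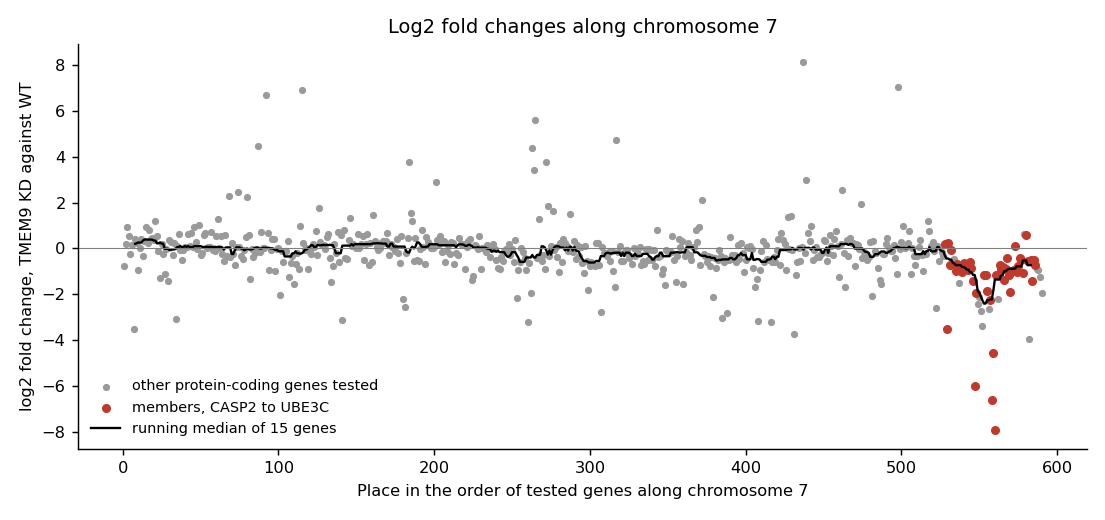
Log2 fold change of TMEM9 KD against WT (vertical axis) of each protein-coding gene tested on chromosome 7, in gene order (horizontal axis), with 48 of the members in red, other genes in grey and the running median of 15 genes as a black line. The line stays near 0 along most of the chromosome and drops below it within the span of the members.

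The lower level did not begin with the first member and did not end with the last. Before CASP2, the 527 protein-coding genes tested on chromosome 7 had a median of -0.06, and the last 20 of them -0.19. The first 6 members, those before CUL1, had a median of 0.07. The 43 members from CUL1 to UBE3C had a median of -0.93, and 40 of them were lower in both knockdown libraries than in both WT libraries, beside 38.5% of all genes. This split at CUL1 was chosen after the values were seen, so nothing is read from that count. Past UBE3C, the 4 genes tested were DNAJB6 (-0.90), NCAPG2 (-0.92), ESYT2 (-1.25) and DYNC2I1 (-1.94), all of them lower by log2 fold change. DNAJB6, a co-chaperone of HSP70, had 173 and 174 CPM in WT and 93.7 and 92.5 CPM in TMEM9 KD. Across other chromosomes, the median log2 fold change of protein-coding genes ran from -0.63 on chromosome 13 to 0.25 on chromosome 4.

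Other rows of the span are given for comparison. The 15 tested rows of other gene types, such as noncoding RNAs and pseudogenes, had a median of -0.89, with a range from -3.05 to 2.33. The 44 protein-coding genes below the count minimum summed to 137 and 149 counts in WT and 36 and 39 in TMEM9 KD. Of the 7 among them with at least 20 counts, 6 had both knockdown libraries below both WT libraries, beside 38.5% of all genes tested. These 6 reached 20 counts through WT alone, so nothing is read from that number. One was SHH, the gene of the morphogen Sonic hedgehog, which had 24 and 25 counts in the wild type and 2 and 1 in the knockdown. Its limb enhancer lies within an intron of LMBR1, which is a member.

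**Figure D2:**
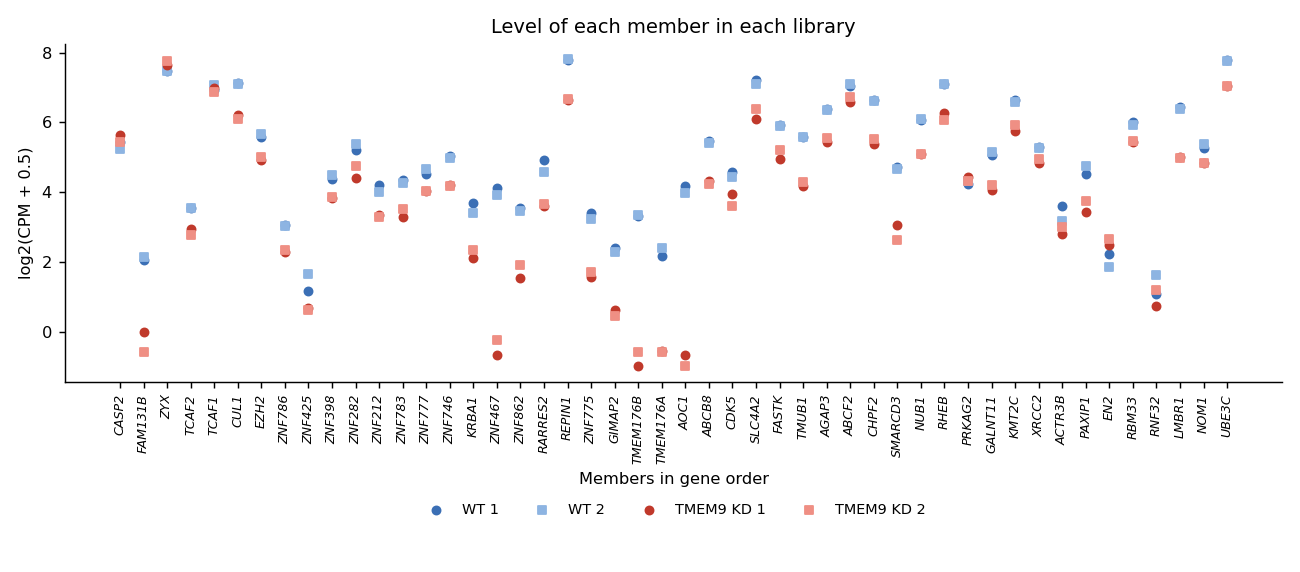
Level of 48 of the 49 members in each library, as log2(CPM + 0.5) on the vertical axis, with the members in gene order on the horizontal axis, WT libraries in 2 shades of blue and TMEM9 KD libraries in 2 shades of red. Red points lie below blue ones in 42 members, and the widest gaps are at ZNF467, TMEM176B, TMEM176A and AOC1.

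Departure from the shared shift was measured as a member's log2 fold change minus the member median. By this measure 37 members lay within 2-fold of the median, 8 at least 2-fold below it and 4 at least 2-fold above it. Among those below, AOC1, TMEM176B, ZNF467, TMEM176A, FAM131B and GIMAP2 reached the count minimum through WT alone. Nothing is therefore read from the balance of directions. Among all genes tested, 81.9% lay within 2-fold of their own median, 10.5% at least 2-fold below and 7.63% at least 2-fold above, so the members were no more tightly spread by that count (75.5% within 2-fold). The distance between quartiles was 0.61 for the members and 0.76 for all genes. Departures were alike in the separate pairs of libraries. The difference of TMEM9 KD replicate 1 from WT replicate 1 and that of replicate 2 from replicate 2 had a Pearson r of 0.968 and a Spearman rho of 0.91 across the 49 members, which share library depth and are not independent replicates. Among the 42 members with a mean of at least 5 CPM, these differences were a median of 0.15 log2 units apart, and at most 0.66, for ACTR3B.

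**Figure D3:**
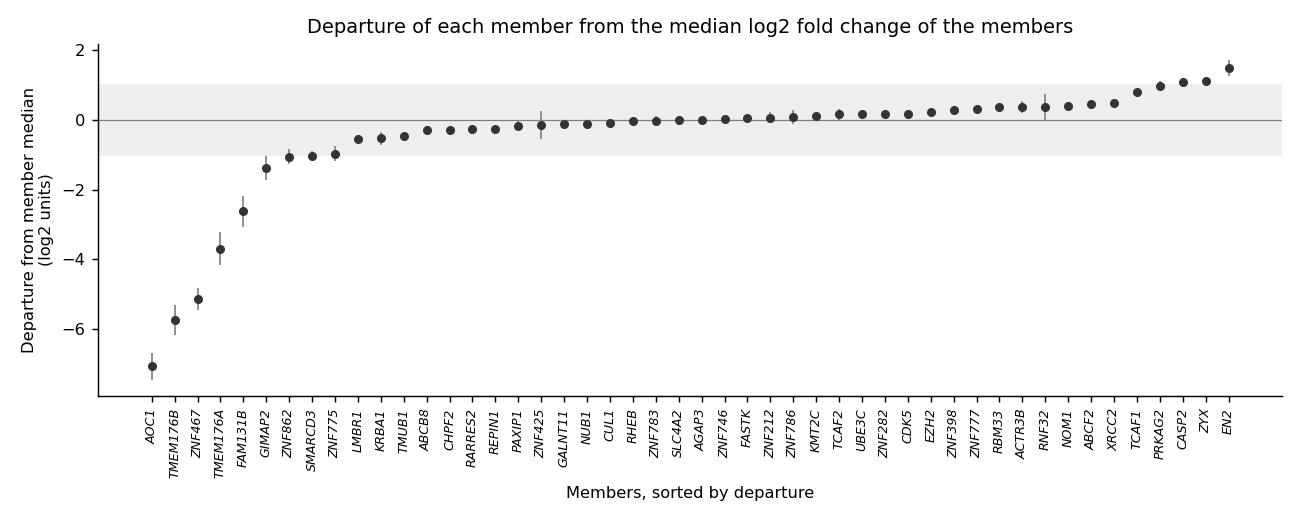
Departure of each member from the member median in log2 units (vertical axis), with bars for 1 SE of the log2 fold change and 48 members sorted from lowest to highest. The grey band marks less than 2-fold, with 8 members below it, from AOC1 to SMARCD3, and CASP2, ZYX and EN2 above it.

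The members closest to the shared shift came from several roles. AGAP3, an activator of ARF GTPases, was the median member with 83.9 and 81.1 CPM in WT and 42.9 and 46.6 CPM in TMEM9 KD (log2 fold change -0.88, SE 0.0804). SLC4A2, the anion exchanger AE2, had 148 and 137 CPM in WT and 68.7 and 83.5 CPM in TMEM9 KD, and the zinc finger gene ZNF746, which encodes the repressor PARIS, had 32.4 and 31.3 CPM in WT and 17.8 and 17.4 CPM in TMEM9 KD. RHEB, the GTPase that activates mTORC1, had 138 and 137 CPM in WT and 77.1 and 67.3 CPM in TMEM9 KD (log2 fold change -0.93, SE 0.0715). In none of these did the groups overlap. FASTK, a mitochondrial RNA-binding protein, and ZNF783 departed by only 0.05 and -0.05.

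The largest departures downward lay in a stretch of 10 neighbouring members from KRBA1 to AOC1. All 10 were below the member median, 6 of them at least 2-fold below, and their median log2 fold change was -2.10. The stretch was picked after its values were seen. On its 2 sides, the 10 members from CUL1 to ZNF746 had a median of -0.81 and the 14 members from ABCB8 to KMT2C one of -0.92. With the genes that were not members included, 17 protein-coding rows of the stretch had at least 10 counts, and 16 of these were lower in both knockdown libraries, beside 38.5% of all genes tested. The 1 exception was GIMAP5, with 0 and 1 counts in WT and 4 and 6 in TMEM9 KD. Rows this low can reach 10 counts only through the group where they are high. Some of them were also not among the genes tested, so nothing is read from this count. ATP6V0E2, a subunit of the v-ATPase left out by name, had 13.6 and 16.2 CPM in WT and 2.93 and 2.69 CPM in TMEM9 KD.

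AOC1 (ENSG00000002726), which encodes diamine oxidase, a histamine-degrading enzyme, departed most. It had 263 and 274 counts in WT and 2 and 0 in TMEM9 KD, a WT to TMEM9 KD ratio of 276 (Clopper-Pearson 95% interval 76.0 to 2283, counting error only). TMEM176B (ENSG00000106565), a membrane protein of endosomes, had 140 and 172 counts in WT and 0 and 3 in TMEM9 KD, a ratio of 107 (36.2 to 521). Its neighbour TMEM176A had 60 and 86 counts in WT and 3 and 3 in TMEM9 KD, a ratio of 25.0 (11.2 to 69.2). ZNF467 (ENSG00000181444), a zinc finger transcription factor, had 252 and 263 counts in WT and 2 and 6 in TMEM9 KD, a ratio of 66.1 (33.3 to 154). These 4 were near 0 in both knockdown libraries and reached the count minimum for members through WT alone. Genes as low as this in WT and in TMEM9 KD could not be members. The size of these departures is therefore described and not tested. Leaving out 1 knockdown library moved the fitted log2 fold change of AOC1 between -6.99 and -11.1, that of TMEM176B between -5.72 and -10.29 and that of ZNF467 between -5.48 and -6.93.

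The promoters of these 4 genes and of PRKAG2, the member that stayed level in the middle of the shifted genes, are shown to compare their CpG content. Each runs from 250 bases before to 50 after the start that RefSeq gives on GRCh38.p14, 5′ to 3′ on the gene's strand, and capitals mark CpG dinucleotides.
AOC1 promoter, chr7:150852267-150852566, plus strand: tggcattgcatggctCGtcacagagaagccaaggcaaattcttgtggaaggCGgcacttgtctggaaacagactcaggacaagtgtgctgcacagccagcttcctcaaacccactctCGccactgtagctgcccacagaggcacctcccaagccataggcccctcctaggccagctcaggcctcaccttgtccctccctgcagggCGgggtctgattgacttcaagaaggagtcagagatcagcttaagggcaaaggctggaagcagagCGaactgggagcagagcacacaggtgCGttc
TMEM176B promoter, chr7:150801311-150801610, minus strand: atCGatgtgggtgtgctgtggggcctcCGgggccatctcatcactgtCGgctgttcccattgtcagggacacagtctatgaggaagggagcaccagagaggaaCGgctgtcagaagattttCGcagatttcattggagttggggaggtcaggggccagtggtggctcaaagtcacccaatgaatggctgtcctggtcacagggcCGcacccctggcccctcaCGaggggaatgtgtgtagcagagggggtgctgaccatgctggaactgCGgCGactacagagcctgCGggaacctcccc
TMEM176A promoter, chr7:150800519-150800818, plus strand: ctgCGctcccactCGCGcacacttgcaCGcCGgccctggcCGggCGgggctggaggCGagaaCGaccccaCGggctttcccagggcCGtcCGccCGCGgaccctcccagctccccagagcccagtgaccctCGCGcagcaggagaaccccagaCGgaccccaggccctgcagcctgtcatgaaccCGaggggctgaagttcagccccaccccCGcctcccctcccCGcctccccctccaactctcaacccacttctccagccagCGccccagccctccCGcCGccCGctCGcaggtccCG
ZNF467 promoter, chr7:149773539-149773838, minus strand: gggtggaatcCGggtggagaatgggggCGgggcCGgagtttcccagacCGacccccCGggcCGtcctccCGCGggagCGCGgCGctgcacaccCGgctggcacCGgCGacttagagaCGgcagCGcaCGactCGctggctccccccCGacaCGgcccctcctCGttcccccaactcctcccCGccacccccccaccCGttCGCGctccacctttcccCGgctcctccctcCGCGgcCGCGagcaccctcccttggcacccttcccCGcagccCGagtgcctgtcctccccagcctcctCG
PRKAG2 promoter, chr7:151877066-151877365, minus strand: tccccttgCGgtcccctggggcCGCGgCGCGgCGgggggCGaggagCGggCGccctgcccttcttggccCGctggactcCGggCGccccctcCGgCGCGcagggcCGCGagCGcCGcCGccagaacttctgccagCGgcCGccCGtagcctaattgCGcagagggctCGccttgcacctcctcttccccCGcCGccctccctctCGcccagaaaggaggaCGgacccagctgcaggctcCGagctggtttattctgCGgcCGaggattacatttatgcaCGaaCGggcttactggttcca

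AOC1 had 6 CpG in this window and TMEM176B 10, while TMEM176A had 26, ZNF467 33 and PRKAG2 34. At these RefSeq starts, the near-absent genes thus did not share a CpG-poor promoter. Only 1 start was taken per gene, and whether it is the start used in these cells was not tested. A promoter was found for 43 members, with a median of 30 CpG against 14 over 27305 RefSeq promoters. Members had to reach a count minimum, while the RefSeq promoters were not limited to genes expressed here. Nothing about the span is therefore read from this contrast or from the motif shares below. The 8 members at least 2-fold below the member median had a median of 19.5 CpG and the 32 within 2-fold one of 30. Across the 43 members the Spearman rho of departure with CpG number was 0.361, a description over genes that share libraries. The GC box GGGCGG, searched on both strands, was found in 31 of 43 member promoters (72.1%) and in 44.6% of all promoters. The AP-1 motif TGANTCA was found in 1 of 43 (2.33%) against 7.76%, and TATAAA in 0 of 43 against 12%.

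GIMAP2, a GTPase of lymphocytes, lies in the same stretch and had 4.82 and 4.34 CPM in WT and 1.04 and 0.859 CPM in TMEM9 KD (log2 fold change -2.26, SE 0.334). TMEM176A, TMEM176B and GIMAP2 are known from immune cells, so leukocyte markers are given beside them. Of 8 leukocyte markers, 3 passed the expression filter, and the summed level of all 8 was 12.9 and 14.2 CPM in WT and 5.99 and 6.25 CPM in TMEM9 KD. PTPRC, which encodes CD45, had 2.27 and 2.78 CPM in WT and 4.4 and 4.01 CPM in TMEM9 KD. CD14 had 6.22 and 8.34 CPM in WT and 0.733 and 1.66 CPM in TMEM9 KD, and CD74 had 4.08 and 2.78 CPM in WT and 0 and 0.172 CPM in TMEM9 KD, and these are the 3 that passed. CD3E and LYZ had no counts in any library. The part of such cells in the result was not tested.

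All 13 members of the list of zinc finger genes, which also holds the KRAB domain gene KRBA1, were lower in both knockdown libraries than in both WT libraries, beside 38.5% of all genes tested. Their median log2 fold change was -0.93. REPIN1, a replication initiation region binding protein, was the most abundant of them with 221 and 224 CPM in WT and 100.1 and 102 CPM in TMEM9 KD (log2 fold change -1.14, SE 0.0644). ZNF282 had 36.9 and 40.9 CPM in WT and 20.6 and 26.3 CPM in TMEM9 KD, and ZNF777 had 22.6 and 24.6 CPM in WT and 15.8 and 16 CPM in TMEM9 KD. The 8 genes of the cluster from ZNF786 to ZNF746 ranged narrowly, from log2 fold change -0.57, SE 0.121 for ZNF777 to log2 fold change -1.04, SE 0.396 for ZNF425, whose lower call ended under DESeq2, without WT replicate 2 and without TMEM9 KD replicate 2. Further along, the departures were wider. ZNF862 had 11.2 and 10.5 CPM in WT and 2.38 and 3.27 CPM in TMEM9 KD, ZNF775 had 10 and 8.85 CPM in WT and 2.44 and 2.75 CPM in TMEM9 KD, and KRBA1 had 12.4 and 10.1 CPM in WT and 3.79 and 4.58 CPM in TMEM9 KD, each departing by -1.06, -0.97 and -0.54 log2 units. Zinc finger genes share repeated sequence, so some of their reads may have been split among paralogs.

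The 4 chromatin members were all lower in both knockdown libraries than in both WT libraries. The same held for 42 of the 49 members and for 38.5% of all genes tested. EZH2 had 47.8 and 50.1 CPM in WT and 29.7 and 31.9 CPM in TMEM9 KD (log2 fold change -0.67, SE 0.0929), and KMT2C had 100.5 and 95.5 CPM in WT and 53.1 and 60.8 CPM in TMEM9 KD (log2 fold change -0.78, SE 0.0768). PAXIP1, a partner of the KMT2C complex that also acts in DNA damage signalling, had 22.3 and 26.2 CPM in WT and 10.4 and 13 CPM in TMEM9 KD. SMARCD3, the BAF60C subunit of SWI/SNF remodellers, had 25.7 and 24.9 CPM in WT and 7.88 and 5.61 CPM in TMEM9 KD (log2 fold change -1.91, SE 0.144). Relative to the summed member counts, SMARCD3 went from 1004 and 981 in WT to 510.3 and 353 in TMEM9 KD counts per 100000, and EZH2 from 1869 and 1977 in WT to 1926 and 2005 in TMEM9 KD. PAXIP1 went from 873 and 1034 in WT to 672 and 819 in TMEM9 KD. On this scale EZH2 and KMT2C overlapped between the groups, and SMARCD3 and PAXIP1 did not. The scale follows the log2 ratio of summed member CPM (-0.70) and not the member median (-0.88). On it 27 members were lower, AGAP3 at the median among them, 12 were higher and 10 overlapped. A lack of overlap here is therefore not by itself a departure from the median.

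Genes of ubiquitin and protein turnover stayed near the shared shift. CUL1 had 138 and 138 CPM in WT and 73 and 68.3 CPM in TMEM9 KD (log2 fold change -0.97, SE 0.0706), and UBE3C (ENSG00000009335), a HECT ubiquitin ligase and the last member, had 221 and 215 CPM in WT and 133 and 130.3 CPM in TMEM9 KD (log2 fold change -0.73, SE 0.0628). NUB1, which directs NEDD8 conjugates to the proteasome, had 66.6 and 68 CPM in WT and 33.6 and 33.8 CPM in TMEM9 KD. TMUB1, a ubiquitin-like protein of ER-associated degradation, was lower still, with 47.4 and 47.4 CPM in WT and 17.7 and 19.2 CPM in TMEM9 KD (log2 fold change -1.36, SE 0.102). RNF32, a RING finger gene near the count minimum, had 1.61 and 2.56 CPM in WT and 1.16 and 1.78 CPM in TMEM9 KD, and its groups overlapped.

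Among genes of signalling, PRKAG2 (ENSG00000106617) did not share the shift. It encodes a regulatory subunit of AMPK and lies between RHEB and GALNT11. It had 18.4 and 19.6 CPM in WT and 21.3 and 19.4 CPM in TMEM9 KD (log2 fold change 0.09, SE 0.121), and the groups overlapped in CPM. As a share of member counts it went from 719 and 775 in WT to 1377 and 1219 in TMEM9 KD per 100000, with no overlap. The summed member level was lower in TMEM9 KD, so a gene that stays level in CPM must take a larger share. The lack of overlap on this scale therefore adds nothing to the CPM. CDK5, a kinase of neurons and of cell motility, had 23.2 and 21 CPM in WT and 15 and 11.7 CPM in TMEM9 KD, a departure of 0.15. GALNT11, next to PRKAG2, starts O-linked glycosylation and had 33.1 and 35.2 CPM in WT and 16.1 and 17.8 CPM in TMEM9 KD (log2 fold change -1.01, SE 0.111).

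**Figure D4:**
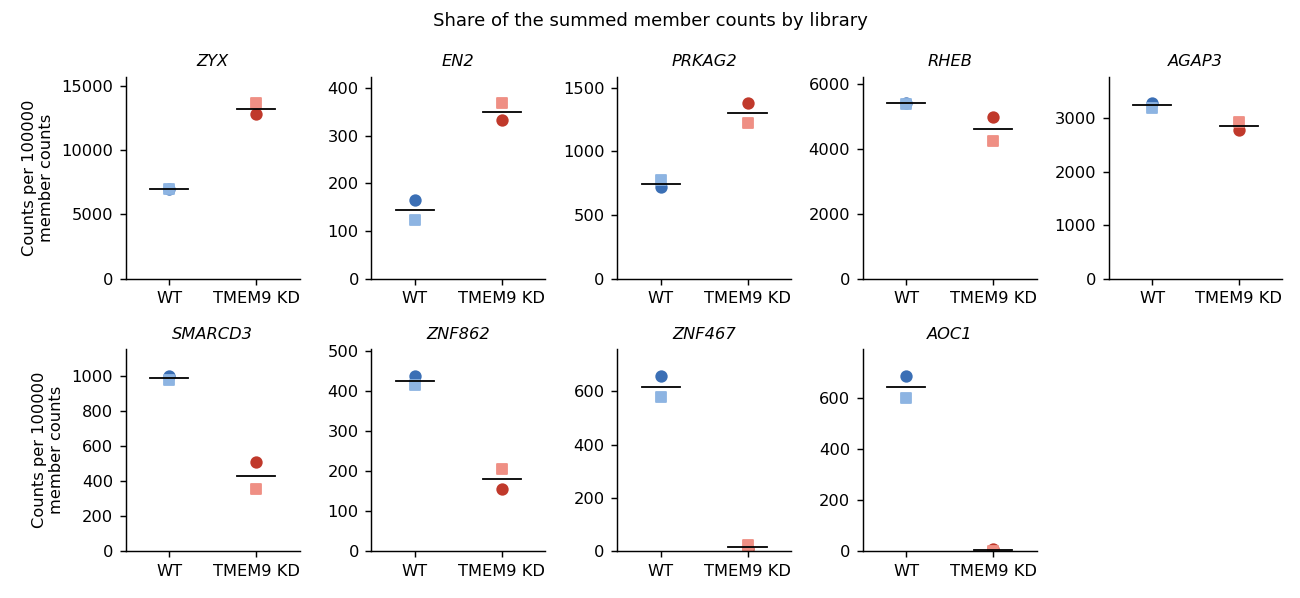
Counts of 9 members per 100000 summed member counts (vertical axes, each from 0) in the WT and TMEM9 KD libraries, with circles for replicate 1, squares for replicate 2 and a line at each group's mean. ZYX, EN2 and PRKAG2 took a larger share in TMEM9 KD, RHEB and AGAP3 a slightly smaller one, and SMARCD3, ZNF862, ZNF467 and AOC1 a much smaller one.

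EN2, a homeobox gene of hindbrain patterning, lay in the shifted part and was higher, with 4.21 and 3.12 CPM in WT and 5.13 and 5.84 CPM in TMEM9 KD (log2 fold change 0.60, SE 0.233). The members on its sides were lower. RBM33, an RNA-binding protein, had 64.3 and 60.7 CPM in WT and 42.8 and 43.7 CPM in TMEM9 KD (log2 fold change -0.53, SE 0.0842), and PAXIP1 is given above. INSIG1, an ER regulator of cholesterol synthesis that was left out by name, lies between PAXIP1 and EN2 and was also higher, with 31.3 and 29 CPM in WT and 48.3 and 45 CPM in TMEM9 KD. LMBR1, a multi-pass membrane protein, had 85.9 and 82.9 CPM in WT and 31.6 and 31.2 CPM in TMEM9 KD (log2 fold change -1.43, SE 0.0842), a departure of -0.55. NOM1, a nucleolar protein, had 37.7 and 41.5 CPM in WT and 28.1 and 28.1 CPM in TMEM9 KD (log2 fold change -0.50, SE 0.0983).

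The members before CUL1 differed widely from each other. CASP2 (ENSG00000106144), the initiator caspase-2, had 43.3 and 37.1 CPM in WT and 49.5 and 43.1 CPM in TMEM9 KD (log2 fold change 0.21, SE 0.092), and the groups overlapped. ZYX, which encodes the focal adhesion protein zyxin, had 179 and 177 CPM in WT and 199 and 217 CPM in TMEM9 KD (log2 fold change 0.22, SE 0.0619). Both knockdown libraries lay above both WT libraries for ZYX. TCAF1, a partner of the cold channel TRPM8, had 120.3 and 135 CPM in WT and 126 and 116 CPM in TMEM9 KD, with overlap, and its paralog TCAF2 had 11.2 and 11.2 CPM in WT and 7.15 and 6.36 CPM in TMEM9 KD (log2 fold change -0.73, SE 0.168). These paralogs share sequence, and some reads may have been split. FAM131B had 54 and 70 counts in WT and 8 and 3 in TMEM9 KD, a ratio of 11.6 (95% interval 6.25 to 23.8). FAM131B also reached the count minimum for members through WT alone. Without TMEM9 KD replicate 1 its log2 fold change was -4.39 and without replicate 2 it was -2.93.

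All 5 members of the list of enzymes and transport genes were lower in both knockdown libraries than in both WT libraries. So were 42 of the 49 members and 38.5% of all genes tested. ABCF2, an ATPase of the ABC family, had 130.5 and 137 CPM in WT and 94.9 and 105 CPM in TMEM9 KD (log2 fold change -0.42, SE 0.0687), a departure upward of 0.46. CHPF2, a chondroitin synthesis enzyme, had 98.8 and 97 CPM in WT and 41.4 and 45.5 CPM in TMEM9 KD (log2 fold change -1.17, SE 0.0789), and RARRES2, which encodes the adipokine chemerin, had 29.6 and 23.4 CPM in WT and 11.7 and 12 CPM in TMEM9 KD (log2 fold change -1.16, SE 0.128). ABCB8, a mitochondrial ABC transporter, had 43.6 and 41.9 CPM in WT and 19.4 and 18.3 CPM in TMEM9 KD, and XRCC2, a factor of homologous recombination, had 39.1 and 38 CPM in WT and 28.1 and 30.2 CPM in TMEM9 KD. XRCC2 departed by 0.48 and ABCB8 by -0.30 log2 units. ACTR3B, an actin-related protein, had 11.7 and 8.46 CPM in WT and 6.41 and 7.51 CPM in TMEM9 KD (log2 fold change -0.52, SE 0.176). Its lower call ended under DESeq2, without WT replicate 1, where the log2 fold change of ACTR3B was -0.28, and without TMEM9 KD replicate 1.

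Per length of exon, the members of highest level were ZYX, REPIN1, CUL1 and RHEB. In CPM per kilobase of exon, the means in WT and TMEM9 KD were 51.1 and 59.7 for ZYX, 47.9 and 21.7 for REPIN1, 38.9 and 19.9 for CUL1 and 38.9 and 20.4 for RHEB. CUL1 and RHEB did not differ beyond their spread in WT. ZYX was highest in both groups. ABCF2, at 32.1 and 23.9, lay below REPIN1, CUL1 and RHEB in WT and above all 3 in TMEM9 KD. The Spearman rho across members of departure with exon length was 0.213, and with mean log2 CPM 0.335.

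Genes elsewhere in the genome whose products work with those of members were not lower as a group. Over 8 lists of such partners, 25 of 67 genes tested were higher and 14 lower, with a median log2 fold change of 0.04, beside 28.7% and 29.0% of all genes tested, which had a median of 0.01. Of 11 PRC2 partners of EZH2, 3 rose and 1 fell. PHF19, a Polycomb-like protein, rose with 63.5 and 63.6 CPM in WT and 100.4 and 106 CPM in TMEM9 KD (log2 fold change 0.70, SE 0.074, edgeR quasi-likelihood adjusted p = 3.53e-14), EED rose by 0.40 and EZHIP, an inhibitor of the complex, rose from 0.195 to 3.09 CPM (edgeR quasi-likelihood adjusted p = 2.14e-10). The core subunit SUZ12 had 132 and 127 CPM in WT and 142 and 132 CPM in TMEM9 KD, which did not pass.

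Of 7 partners of the KMT2C complex, 3 rose and 2 fell, beside 28.7% higher and 29.0% lower among all genes tested. The same shares stand beside the other lists, which are short and were not tested as sets. KMT2D, the paralog of KMT2C, had 119 and 109.9 CPM in WT and 160.1 and 194 CPM in TMEM9 KD (log2 fold change 0.63, SE 0.0687, edgeR quasi-likelihood adjusted p = 1.21e-13), while the demethylase gene KDM6A had 31.8 and 29.5 CPM in WT and 21.4 and 19.3 CPM in TMEM9 KD (edgeR quasi-likelihood adjusted p = 2.62e-06). Of 8 genes of TSC and mTORC1 around RHEB, 5 rose and 0 fell. RPTOR, the scaffold of mTORC1, had 75 and 71.7 CPM in WT and 119.5 and 133 CPM in TMEM9 KD (log2 fold change 0.79, SE 0.0718, edgeR quasi-likelihood adjusted p = 3.15e-17), and MLST8 had 32.7 and 37.4 CPM in WT and 50.5 and 59.1 CPM in TMEM9 KD (edgeR quasi-likelihood adjusted p = 2.4e-09). Of 11 SCF partners of CUL1, 3 rose and 2 fell, with BTRC the largest rise at 0.39 and CAND1 and SKP1 falling by 0.15 and 0.18 on the log2 scale. The calls of CAND1 and SKP1 ended with library totals in place of TMM factors and without either WT replicate.

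Of 8 AMPK genes tested, 2 rose and 3 fell, led by PRKAA2, a catalytic subunit, with 3.88 and 4.62 CPM in WT and 0.733 and 1.2 CPM in TMEM9 KD (edgeR quasi-likelihood adjusted p = 6.48e-08). Of 9 genes of caspases and the PIDDosome around CASP2, 2 rose and 6 fell, beside 28.7% higher and 29.0% lower among all genes tested. With lists this short, nothing is read from such counts. BID, a BH3-only protein, had 115 and 113 CPM in WT and 45.1 and 50.9 CPM in TMEM9 KD (log2 fold change -1.25, SE 0.0766, edgeR quasi-likelihood adjusted p = 2.57e-27), CASP10 fell by 1.48 on the log2 scale, and CRADD, the adaptor that recruits caspase-2, rose by 0.72. Of 7 partners of CDK5, 3 rose and 0 fell. CDK5R1, the activator p35, had 5.95 and 5.34 CPM in WT and 12.6 and 14 CPM in TMEM9 KD (log2 fold change 1.25, SE 0.169, edgeR quasi-likelihood adjusted p = 4.78e-10), and CABLES1 rose by 0.95.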

How the data were processed

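The authors deposited raw counts per Ensembl gene, with 1 column per library, and no other column. Per the submitters' processing notes, the tools were CASAVA and Bowtie 0.12.2, and hg19 and mm8 are named as builds with no role. The sources used here do not say how reads were counted, or whether by strand, so reads of overlapping or antisense genes cannot be told apart. GENCODE 29, of another build, served for gene type, order and exon length, and no coordinates of genes are given.

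The main fit was edgeR 4.0.16 in R 4.3.3, with TMM factors, filterByExpr defaults (minimum count 10, total 15), the quasi-likelihood F test with group as the only term, and Benjamini-Hochberg adjustment over 14923 genes at 0.05. SE was taken from the fit as log2 fold change, without its sign, divided by the root of F. The script was tested on simulated data. Promoters are RefSeq's, by symbol, with none found for 6 members. Named genes are the members furthest from and closest to the member median, those of highest level, up to 4 of each of 10 role lists and up to 3 partners per list. FAM131B, TCAF2, ACTR3B, SUZ12, GIMAP5, ATP6V0E2, INSIG1 and the genes outside the members' span other than partners were named after their values were seen. Some genes of the members and lists are counted but not reported here by name. Members and lists were chosen with earlier results of these data known.

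Libraries of a group differed by more than sampling noise (chi-square over degrees of freedom 2.04 for WT and 4.82 for TMEM9 KD). Intervals cover counting error only.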

Additional observations from a re-analysis of the deposited data

How the results depend on the processing

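With 2 libraries per group, the precision of single members is limited, most of all for those under 5 CPM. Where a value below differs from the main one, the cause was not tested unless it is named. With library totals in place of TMM factors, the member median was -0.81 and 9 partner genes were lower. With a mean of at least 5 CPM, 5 members were at least 2-fold below the median, as 7 members were then not tested. DESeq2 1.42.0 called 2 members higher. With a minimum of 400 counts, the median was -0.83 and 4 members were at least 2-fold below it. Measured from the log2 ratio of summed member counts (-0.70), 2 members were at least 2-fold above. Leaving out the 6 members before CUL1, an alternative chosen after seeing the data, gave a median of -0.93, 1 member higher and 2 at least 2-fold above.

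Leaving out each library in turn gave 41 to 42 members lower, 1 to 3 higher, medians from -0.93 to -0.85, 7 to 9 members at least 2-fold below and 3 to 5 at least 2-fold above. For partners it gave 17 to 26 higher and 10 to 16 lower. The lowest count of higher calls, 1, was without WT replicate 2. The replicate number as a block gave 42 members lower, 3 higher (CASP2 was lost) and a median of -0.88. Deviations of same-numbered libraries had a correlation of -0.0012, so no shared deviation was seen. This value cannot show whether same-numbered libraries were prepared together, and the labels do not say. No result was reversed under the alternatives run.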
